A study of Homo sapiens with 24 samples.

Results

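S100 calcium-binding proteins were followed through 10 genes, S100A2, S100A4, S100A6, S100A7, S100A8, S100A9, S100A11, S100A14, S100A16 and S100P, which were picked by symbol from the 60617 genes of the raw count table. All 10 had enough reads to be tested, among 15476 genes tested in all. The cells were 686Tu (MDA686TU in the labels), a line from human head and neck squamous cell carcinoma, kept in DMEM/F12 with serum. EGCG, the main catechin of green tea, and resveratrol, a stilbene of grape skin, were given for 24 h. The untreated control received neither agent, the EGCG group 40 µM EGCG, the resveratrol group 15 µM resveratrol, and the combination group 40 µM EGCG plus 15 µM resveratrol. Each group had 6 libraries of stranded mRNA. All came from 1 cell line, and the methods describe the RNA as isolated in sextuplicate without saying whether separate cultures were used, so p-values measure the spread between these samples. The resveratrol stock was in DMSO and EGCG was in water. Whether the control cells received DMSO is not given in the sources used here, so resveratrol and its solvent cannot be told apart.

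S100 proteins are small proteins that bind calcium through paired EF-hand loops and mostly work as dimers. On binding calcium they open a surface for partner proteins inside the cell, such as annexins and myosin, and several are also released and bind RAGE or Toll-like receptor 4 on other cells. Most of their genes lie in the epidermal differentiation complex of chromosome 1, beside the genes of the cornified envelope, the cross-linked protein shell of mature keratinocytes. S100A8 and S100A9 form calprotectin, an antimicrobial complex that withholds zinc and manganese. S100A7 (psoriasin) is a zinc-binding antimicrobial protein of squamous epithelium.

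The libraries held 7034872 to 11735574 counts. The share of mitochondrial transcripts was 0.249% to 0.326% for replicates 1 to 3 of the 4 groups but 0.448% to 0.775% for replicates 4 to 6. No label names this division, so results within each set of replicates are given for the main results and where they differ in call. All 10 squamous epithelial markers (such as KRT5, KRT14 and TP63) were expressed, with summed normalized counts of 162397 to 171547 in control libraries, 155666 to 175101 in EGCG libraries, 135285 to 143218 in resveratrol libraries and 134179 to 144574 in combination libraries. With the combination, 3 of these markers were upregulated and 4 downregulated, while 59.8% of all tested genes were called. None of 8 leukocyte markers passed the filter on low counts. Their summed normalized counts lay between 4.08 and 14.3 in every library, and CSF3R and FCGR3A were at 0 throughout. Neutrophils and monocytes are the blood cells known for S100A8 and S100A9. Of 6 fibroblast markers, only COL1A1 and COL1A2 were tested, and the summed level of the 6 was 1116 to 1349 in the control, 898 to 1114 with EGCG, 1312 to 1558 with resveratrol and 1525 to 1753 with the combination. Most of this sum was COL1A1, with a mean of 1182 normalized counts in the control beside 19.5 for COL1A2. LUM, COL3A1, DCN and PDGFRA had means of 5.00, 0.466, 0.175 and 0 there. The part of this sum in the S100 results was not tested. RNA came from whole cultures, in which fewer cells that express a gene and less RNA per cell cannot be told apart.

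S100P, the member that rose, and S100A7, S100A8 and S100A9, the 3 with the largest falls with the combination, carried the letters TATAAA shortly before the start site. Their RefSeq promoters (GRCh38.p14, 120 bases ending just before the start site, written along the strand of the gene) are shown because of these changes, with TATAAA in capitals. S100A2, which fell more than S100A8 and S100A9 with resveratrol, held no TATAAA in its window. S100P is at chr4:6693758-6693877 on the plus strand, S100A7 at chr1:153460652-153460771 on the minus strand, S100A8 at chr1:153391074-153391193 on the minus strand and S100A9 at chr1:153357734-153357853 on the plus strand.
S100P: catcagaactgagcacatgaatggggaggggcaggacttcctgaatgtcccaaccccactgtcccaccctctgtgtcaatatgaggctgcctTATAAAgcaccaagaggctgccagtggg
S100A7: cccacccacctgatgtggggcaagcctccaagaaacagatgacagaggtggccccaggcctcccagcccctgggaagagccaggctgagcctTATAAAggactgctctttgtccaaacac
S100A8: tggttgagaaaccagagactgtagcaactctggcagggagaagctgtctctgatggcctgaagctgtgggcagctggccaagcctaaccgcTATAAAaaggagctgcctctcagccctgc
S100A9: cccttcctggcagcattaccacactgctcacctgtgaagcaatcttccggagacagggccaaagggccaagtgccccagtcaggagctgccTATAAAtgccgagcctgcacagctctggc
The letters began 28 bases before the start site in S100P and S100A7 and 29 bases before it in S100A8 and S100A9. The fifth match was in S100A4, a member called with neither treatment, 31 bases before its start site. The windows of S100A6 and S100A14 held TATAAG, which differs from TATAAA in the last letter. Over 250 bases before the start site, read on both strands, TATAAA was found in 5 of the 10 members and in 10.7% of 35116 RefSeq windows. The AP-1 letters TGANTCA were found in S100A2 (6.57% of windows), the C/EBP letters TTGCNNAA in S100A11 (9.05%) and the antioxidant response element core TGACNNNGC in S100A14 (10.9%). TGANTCA and TGACNNNGC can share bases, but no matches overlapped in these windows. Such a match is a run of letters and no evidence of binding.

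Per gene length, S100A11 had the highest level of the 10 members in untreated cells and S100A4 the lowest mean. The authors' FPKM values, for which the gene lengths used are not given in the sources used here, averaged 807 ± 28.8 for S100A11 and 425 ± 17.3 for S100A2 in the control (SD, n = 6). S100A6 (227 ± 8.50), S100A16 (211 ± 9.04) and S100A14 (193 ± 9.37) followed, each overlapping its neighbour in this order. S100A9 averaged 84.3 ± 11.9 FPKM and S100A8 16.7 ± 1.34 FPKM, each apart from its neighbours in every library. S100P (4.0 ± 1.13), S100A7 (3.30 ± 1.05) and S100A4 (1.70 ± 0.300) were lowest and overlapped from one to the next. The order with EGCG was the same. With resveratrol and with the combination, S100P moved above S100A8 in mean level, to 13.6 ± 2.29 against 11.3 ± 1.64 FPKM and to 12.8 ± 3.03 against 9.54 ± 1.36 FPKM. The ranges of the S100P and S100A8 libraries overlapped in both groups. S100A14 moved above S100A6 and S100A16 in both groups, again with overlapping neighbours.

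**Figure D1:**
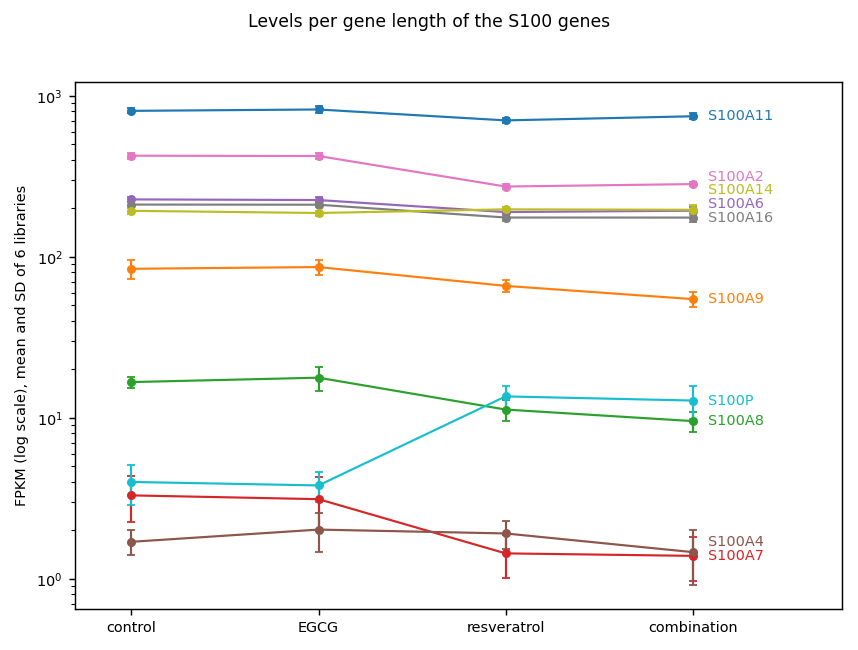
Mean FPKM of the 10 S100 genes (log scale, error bars SD of 6 libraries) in the 4 groups. The line of S100P climbs from 4.0 FPKM in the control to 13.6 with resveratrol and crosses that of S100A8, which goes from 16.7 to 11.3.

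S100P was the one member upregulated by resveratrol and by the combination, and 7 of the 10 were downregulated by each. A gene was called when edgeR's quasi-likelihood test gave a Benjamini-Hochberg adjusted p under 0.1 and an unadjusted p under 0.05, the limits of the study's methods. Of all tested genes 56.9% were called with resveratrol, 28.9% as higher and 28% as lower. With the combination 59.8% were called, 29.9% as lower. The median log2 fold change of the 10 members was -0.26 with resveratrol and -0.25 with the combination, and the median over all tested genes was 0.00 and -0.00. Both comparisons use the same 6 control libraries. S100A4 and S100A14 were called in neither. The 6 treated libraries lay wholly above or below the 6 control libraries for 7 of the 10 members with resveratrol, where 31% of all tested genes did, and for 7 with the combination, where 31.9% did. Of these 7, 6 were lower in each comparison, beside 15.9% and 16.5% of all genes.

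**Figure D2:**
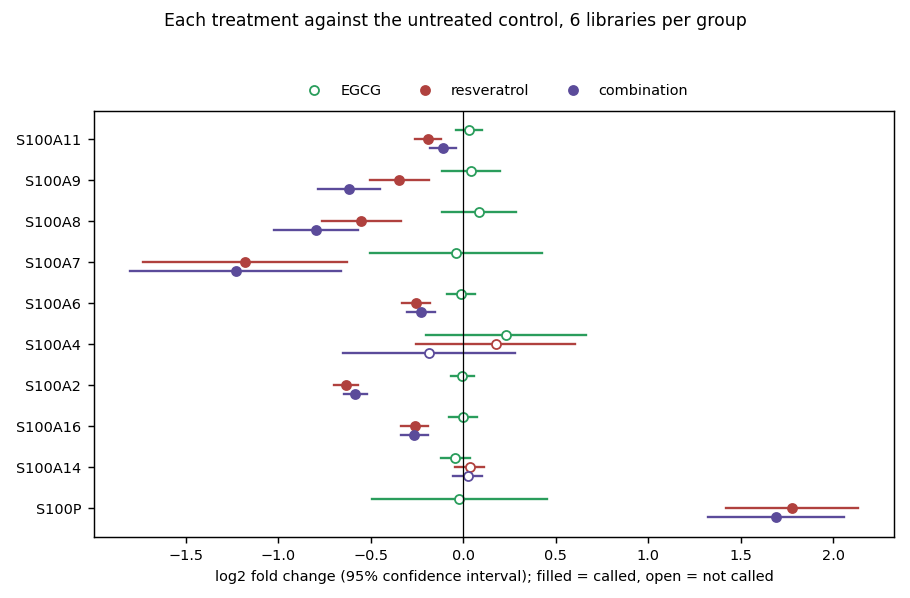
Log2 fold change of each S100 gene against the untreated control (points, with 95% confidence intervals as bars), filled where called. EGCG points lie between -0.04 and 0.23 and are all open. Resveratrol and combination points are filled for 8 genes, with S100P near 1.78 and 1.69 and S100A7 near -1.18 and -1.23.

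EGCG alone changed no member past the limits. The edgeR test called 0 of 10, with 0 at an unadjusted p under 0.05 and 0 by the DESeq2 Wald test, where 1.76% of all tested genes were called and 10.1% had such a p. The fold changes ran from -0.04 for S100A14 to 0.23 for S100A4 on the log2 scale, and the lowest adjusted p was 0.785 (edgeR, Benjamini-Hochberg). The precision differed between members. For S100A2 the 95% confidence interval reached from -0.07 to 0.06, whereas for S100A7 it reached from -0.51 to 0.42, for S100A4 from -0.20 to 0.66 and for S100P from -0.49 to 0.45, so that changes of that size in these 3 genes of few counts were not detectable at this depth.

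S100P (ENSG00000163993, plus strand, chr4:6693878-6697170) lies apart from the cluster on chromosome 1. It is a RAGE ligand first found in placenta, and it binds ezrin, which links membrane and actin. Normalized counts of S100P were 12.9 to 24.7 (median 14.5) in the control and 12.6 to 21.7 (median 14.9) with EGCG. They were 45.7 to 71.6 (median 56.1) with resveratrol and 34.7 to 63.1 (median 57.8) with the combination. Every library with resveratrol lay above every library without it. The change was 3.43-fold with resveratrol (log2 1.78, SE 0.175, adjusted p = 9.67e-11 by edgeR with Benjamini-Hochberg adjustment) and 3.23-fold with the combination (log2 1.69, SE 0.181, adjusted p = 4.98e-10). Within replicates 1 to 3 the log2 change was 2.11 with resveratrol and 2.03 with the combination, and within replicates 4 to 6 it was 1.47 and 1.39. The combination differed from resveratrol by -0.09 on the log2 scale (95% confidence interval -0.37 to 0.19).

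**Figure D3:**
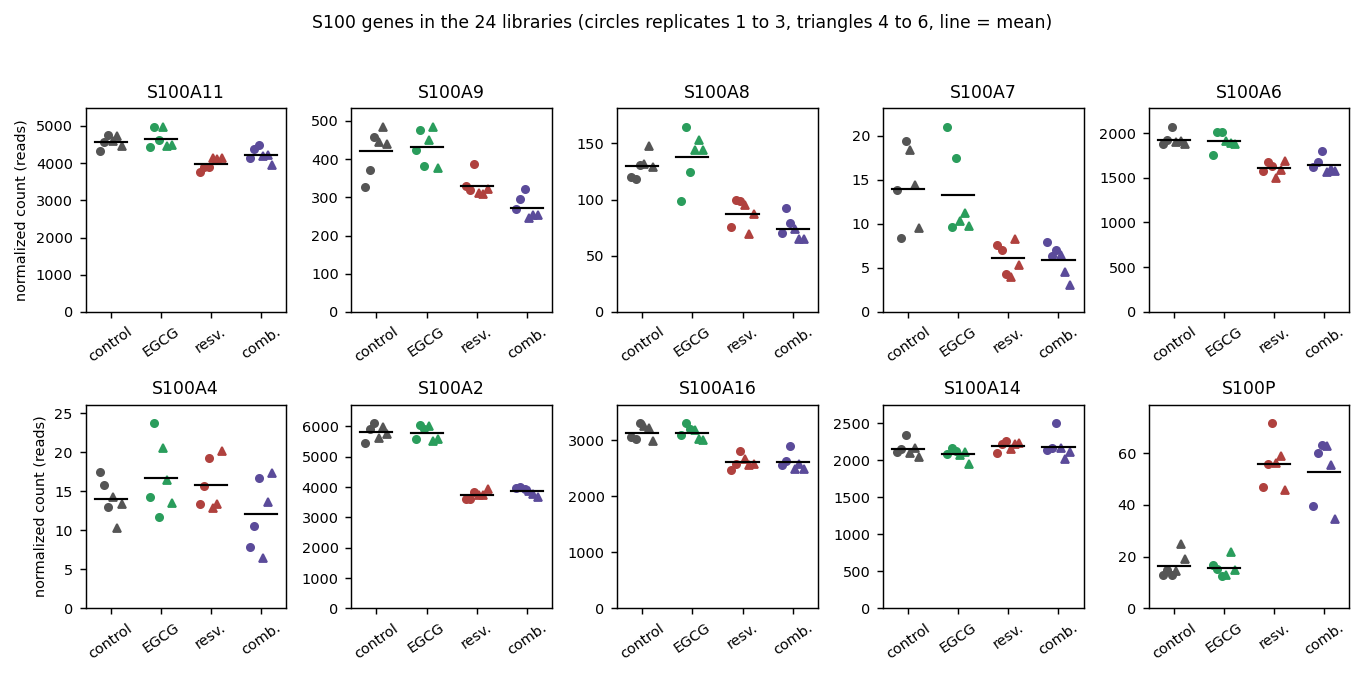
Normalized counts of each S100 gene in the 24 libraries, from 0 upward, by group, with circles for replicates 1 to 3, triangles for replicates 4 to 6 and a line at the mean. S100P is at 34.7 or more in all 12 libraries with resveratrol and at 24.7 or less in the other 12, and S100A2 is at 3988 or less and at 5465 or more in the same division.

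S100A7 (ENSG00000143556, minus strand, chr1:153457744-153460651) had the largest fall. Its normalized counts were 8.40 to 19.4 (median 14.1) in the control, 9.69 to 21.0 (median 10.8) with EGCG, 3.96 to 8.26 (median 6.19) with resveratrol and 3.06 to 7.89 (median 6.41) with the combination. Both groups with resveratrol lay wholly below the control, by a small margin. S100A7 fell to 43.6% of the control mean with resveratrol (log2 -1.18, SE 0.271, edgeR adjusted p = 0.000391) and to 42.1% with the combination (log2 -1.23, SE 0.281, edgeR adjusted p = 0.000319). Within replicates 1 to 3 the log2 change with the combination was -0.98, and within replicates 4 to 6 it was -1.56. The nearly identical gene S100A7A had 45 counts over all 24 libraries, and how the authors counted reads that match both genes is not given in the sources used here, so the division between them is uncertain.

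S100A8 and S100A9, the subunits of calprotectin, both fell, and further with the combination than with resveratrol in mean level. S100A8 (ENSG00000143546, minus strand, chr1:153390032-153391073) had normalized counts of 119 to 147 (median 130.1) in the control, 98.4 to 165 (median 144) with EGCG, 69.1 to 99.7 (median 91.0) with resveratrol and 64.6 to 92.8 (median 71.8) with the combination. S100A9 (ENSG00000163220, plus strand, chr1:153357854-153361023) had 328 to 484 (median 443), 376 to 484 (median 437), 309.6 to 388 (median 320.0) and 245 to 322 (median 262) in the same order. S100A8 in both groups with resveratrol lay below all control libraries, while for S100A9 this held for the combination but not for resveratrol alone.

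S100A8 fell by 0.55 on the log2 scale with resveratrol (SE 0.105, edgeR adjusted p = 3.63e-05) and by 0.80 with the combination (SE 0.111, edgeR adjusted p = 1.5e-07). S100A9 fell by 0.35 with resveratrol (SE 0.0792, edgeR adjusted p = 0.000386) and by 0.62 with the combination (SE 0.0826, edgeR adjusted p = 6.73e-08). The size differed between the sets of replicates. For S100A9 with resveratrol the log2 change was -0.15 within replicates 1 to 3 (edgeR adjusted p = 0.256, not called) and -0.54 within replicates 4 to 6 (edgeR adjusted p = 1.27e-07), and with the combination it was -0.37 and -0.86. For S100A8 with the combination it was -0.61 and -1.0. Per gene length, the ratio of S100A9 to S100A8 was 5.04 ± 0.432 in control cells, 4.97 ± 0.901 after EGCG, 5.95 ± 0.841 after resveratrol and 5.77 ± 0.569 after the combination (FPKM, SD, n = 6), and the ranges of all 4 groups overlapped.

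S100A2 had the change with the smallest standard error of the 10 genes. S100A2 (ENSG00000196754, minus strand, chr1:153561108-153567890) encodes a mainly nuclear S100 protein of basal keratinocytes. Its normalized counts were 5465 to 6107 (median 5842) in the control, 5531 to 6064 (median 5749.7) with EGCG, 3592 to 3934 (median 3736) with resveratrol and 3689 to 3988 (median 3898) with the combination. A wide gap parted the libraries with and without resveratrol. The level fell to 64.3% of the control mean with resveratrol (log2 -0.63, SE 0.0313, edgeR adjusted p = 1.03e-18) and to 66.6% with the combination (log2 -0.58, SE 0.0314, edgeR adjusted p = 6.2e-18). It fell in both sets of replicates, by 0.55 and 0.62 on the log2 scale with the combination.

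S100A6, S100A16 and S100A11 fell by less. S100A6 (calcyclin, ENSG00000197956, minus strand, chr1:153534599-153536244), which binds annexins and the calcyclin-binding protein CACYBP, had 1879 to 2069 normalized counts (median 1905) in the control, 1759 to 2014 (median 1899.7) with EGCG, 1493 to 1684 (median 1610.2) with resveratrol and 1568 to 1800.6 (median 1609.5) with the combination. S100A16 (ENSG00000188643, minus strand, chr1:153606886-153613145) had 2978 to 3299.6 (median 3131), 3009 to 3295 (median 3133), 2461 to 2811 (median 2573) and 2483 to 2888 (median 2562). S100A11 (ENSG00000163191, minus strand, chr1:152032506-152047907), a partner of annexin A1, had 4325 to 4747 (median 4582), 4437 to 4975 (median 4556), 3772 to 4144 (median 3999) and 3948 to 4476 (median 4213). The control libraries lay above both groups with resveratrol for S100A6 and S100A16, and for S100A11 above resveratrol but not above the combination.

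The log2 changes of S100A6 were -0.26 with resveratrol and -0.23 with the combination (edgeR adjusted p = 4.49e-07 and 3.05e-06), and those of S100A16 were -0.26 in each (edgeR adjusted p = 1.72e-07 and 1.25e-07). Both were called within each set of replicates. S100A11 changed by -0.19 with resveratrol and by -0.11 with the combination (edgeR adjusted p = 1.45e-05 and 0.0077). Within replicates 1 to 3 the S100A11 change with the combination was -0.06 (edgeR adjusted p = 0.278, not called) and within replicates 4 to 6 it was -0.16. Under scaling to the library total only, its value was -0.03 (edgeR adjusted p = 0.521), and this scaling moved the median of all genes by 0.08 with the combination. S100A6 and S100A11 each overlap a long non-coding RNA on the other strand with a mean of 2.58 and 2.75 counts per library, small beside their own.

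S100A14 and S100A4 did not pass the limits with either treatment. S100A14 (ENSG00000189334, minus strand, chr1:153614255-153616986), a RAGE ligand of epithelial cells, had 2043 to 2345 normalized counts (median 2133) in the control, 1949.6 to 2165 (median 2101) with EGCG, 2095 to 2258 (median 2222) with resveratrol and 2024 to 2500.1 (median 2150.4) with the combination. All 4 groups overlapped, and the 95% confidence interval of the log2 change was -0.04 to 0.11 with resveratrol and -0.05 to 0.10 with the combination. Scaled by library size alone, S100A14 was called as higher by 0.12 with resveratrol and by 0.11 with the combination (edgeR adjusted p = 0.0077 and 0.0172), where the median of all genes also rose by 0.09 and 0.08. S100A4 (metastasin, ENSG00000196154, minus strand, chr1:153543613-153550136), which binds non-muscle myosin, had only 10.3 to 17.5 normalized counts (median 13.8) in the control, 11.6 to 23.7 (median 15.4) with EGCG, 12.9 to 20.2 (median 14.6) with resveratrol and 6.50 to 17.3 (median 12.1) with the combination. The interval of its change was wide, from -0.26 to 0.60 with resveratrol and from -0.65 to 0.28 with the combination. S100A4 also overlaps S100A3 on the same strand, with a mean of 14.9 counts for S100A4 and 10.0 for S100A3 per library, so reads of the shared stretch are of uncertain origin.

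The combination was compared with each agent to ask what the second agent added. Against resveratrol, S100A9 was the single member called, and 7.86% of all tested genes were called, 3.86% as lower. S100A9 was 0.27 lower on the log2 scale (SE 0.0849, edgeR adjusted p = 0.0547), and 6 of 6 combination libraries lay below the resveratrol mean, although the groups overlapped. The call rests on few libraries. It was lost without resveratrol replicate 3 (-0.22, edgeR adjusted p = 0.172), and also without combination replicate 4 (-0.24, 0.118), replicate 5 (-0.25, 0.111) or replicate 6 (-0.25, 0.118). Within replicates 1 to 3 the difference was -0.22 (edgeR adjusted p = 0.285) and within replicates 4 to 6 it was -0.32 (edgeR adjusted p = 0.0289). S100A8 was lower by 0.24 and S100A11 higher by 0.08, at unadjusted p of 0.046 and 0.021, which with S100A9 made 3 members under 0.05 (18.2% of all genes), and neither passed after Benjamini-Hochberg adjustment in edgeR (0.264 and 0.180). Within replicates 1 to 3 alone S100A11 was called as higher by 0.17 (edgeR adjusted p = 0.0433), and within replicates 4 to 6 the difference was -0.00. For S100A2 the interval of the difference was -0.01 to 0.11 and for S100A7 it was -0.73 to 0.63.

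Against EGCG, with the same combination libraries as against the control, the combination gave 8 calls of 10, with S100P higher and S100A2, S100A6, S100A7, S100A8, S100A9, S100A11 and S100A16 lower, where 57.8% of all tested genes were called, 29.1% as lower. S100P was higher by 1.71 on the log2 scale and S100A7, S100A8, S100A9 and S100A2 were lower by 1.19, 0.88, 0.66 and 0.58. Each set of replicates alone also gave 8 calls, with S100P at 1.87 and 1.54, S100A8 at -0.66 and -1.12 and S100A9 at -0.52 and -0.82 in replicates 1 to 3 and 4 to 6. The combination libraries of S100A2, S100A7, S100A8, S100A9 and S100A16 lay below all EGCG libraries, which held in that direction for 14% of tested genes. The interaction, the part of the combination's change that the changes with each agent alone do not add up to, was called for 0 of 10 members by edgeR and for 0 by DESeq2, with 0.265% of all tested genes called by edgeR. At an unadjusted p under 0.05 it was past the limit for 2 (7.72% of all genes), S100A9 (-0.31, 95% confidence interval -0.54 to -0.08) and S100A8 (-0.33, -0.64 to -0.02), with an adjusted p of 0.445 or more in edgeR for every member.

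**Figure D4:**
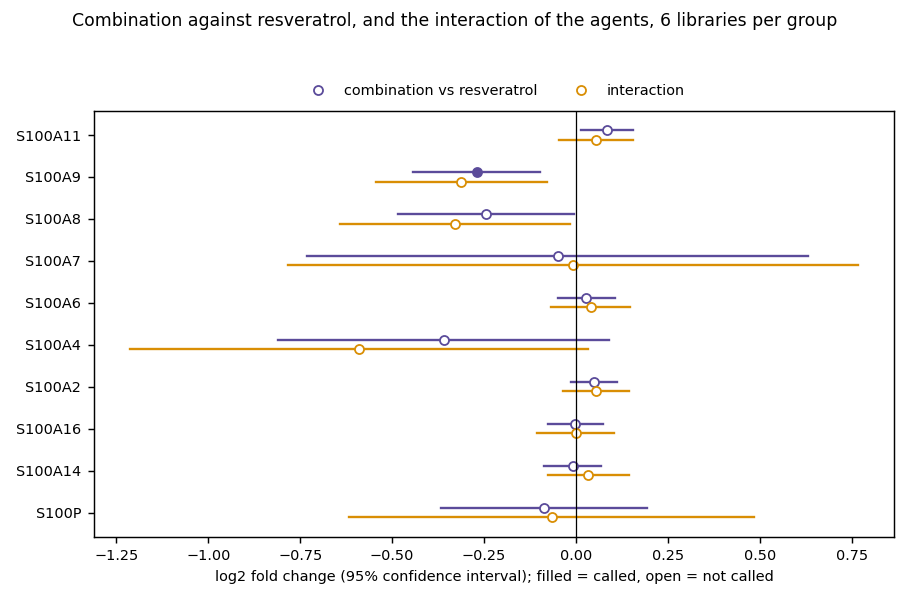
Log2 difference of the combination from resveratrol (purple) and the interaction of the agents (orange) for each S100 gene, with 95% confidence intervals. The filled point is S100A9 at -0.27, the single call, and the intervals of S100A4, S100A7 and S100P are the widest.

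Outside the 10 members, 11 further S100 genes were listed, and 3 of them passed the filter on low counts. S100A10, the partner of annexin A2, had a mean of 3221 normalized counts in the control and fell by 0.10 on the log2 scale with resveratrol and by 0.09 with the combination (edgeR adjusted p = 0.00299 and 0.00721). S100A13, which takes part in the release of FGF1 and interleukin-1 alpha, fell by 0.15 and 0.16 (edgeR adjusted p = 0.0669 and 0.0523). S100A3, a gene of hair cuticle, had a mean of 12.2 normalized counts in the control and differed by -0.45 with resveratrol (edgeR adjusted p = 0.140, not called) and by -0.67 with the combination (edgeR adjusted p = 0.0335). The S100A3 difference with the combination was -0.27 within replicates 1 to 3 (edgeR adjusted p = 0.607, not called) and -1.21 within replicates 4 to 6 (edgeR adjusted p = 0.0118). Within replicates 1 to 3 S100A13 was not called with either treatment, nor with resveratrol within replicates 4 to 6, where S100A10 with resveratrol was not called either. With library size alone, only 1 of these 3 was called with the combination. The other 8 were at the edge of detection or below it. S100A12, S100A7A, S100A1 and S100A5 had 84, 45, 38 and 7 counts over all libraries and S100Z had 2, while S100B, S100G and S100A7L2 had 0, which allows up to 0.0142 CPM (3 counts over all 24 libraries, counting error only).

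Of 38 cornified envelope genes, which lie in the same complex as the S100 cluster, 14 were tested. All 14 were downregulated with the combination (29.9% of all tested genes were) and 13 with resveratrol (28%), with median log2 changes of -1.22 and -0.70. Replicates 1 to 3 alone gave 13 and 9 calls and replicates 4 to 6 alone gave 14 and 13. Their changes were not tested against those of the S100 genes. SPRR4, SPRR2G, CRCT1, LCE3D and SPRR2A, which encode small proline-rich and late cornified envelope proteins and a cysteine-rich protein of the complex, led the falls with the combination at -2.34, -1.60, -1.55, -1.51 and -1.33. Against resveratrol, 7 of the 14 were called as lower with the combination, where 3.86% of all tested genes were. Each set of replicates alone gave 4 calls in this comparison. SPRR4 had a mean of 69.8 normalized counts in the control, 23.7 with resveratrol and 13.3 with the combination. Of the 7 S100-fused type proteins, which carry an S100-like domain at the front of a long repeat protein, 4 were tested. RPTN (repetin) fell by 1.18 with resveratrol and by 1.64 with the combination, and FLG (filaggrin) by 0.38 and 0.28. The FLG change with resveratrol was -0.18 within replicates 1 to 3 (edgeR adjusted p = 0.115, not called) and -0.54 within replicates 4 to 6. HRNR (hornerin) rose by 1.15 with resveratrol (edgeR adjusted p = 0.00167), with 0.64 and an adjusted p of 0.105 with the combination. The rise with resveratrol was 0.57 within replicates 1 to 3 (edgeR adjusted p = 0.280, not called) and 1.73 within replicates 4 to 6 (edgeR adjusted p = 3.23e-05). With the combination, replicates 1 to 3 alone gave 2 calls among these 4 genes. Replicates 4 to 6 alone gave 3, HRNR among them. TCHH (trichohyalin) was called as higher by 0.42 with the combination (edgeR adjusted p = 0.0793), but not by the DESeq2 Wald test (adjusted p = 0.119) or within either set of replicates (edgeR adjusted p = 0.199 and 0.337). RPTN, HRNR and TCHH had few counts, with means of 16.4, 12.3 and 17.1 normalized counts in the control.

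**Figure D5:**
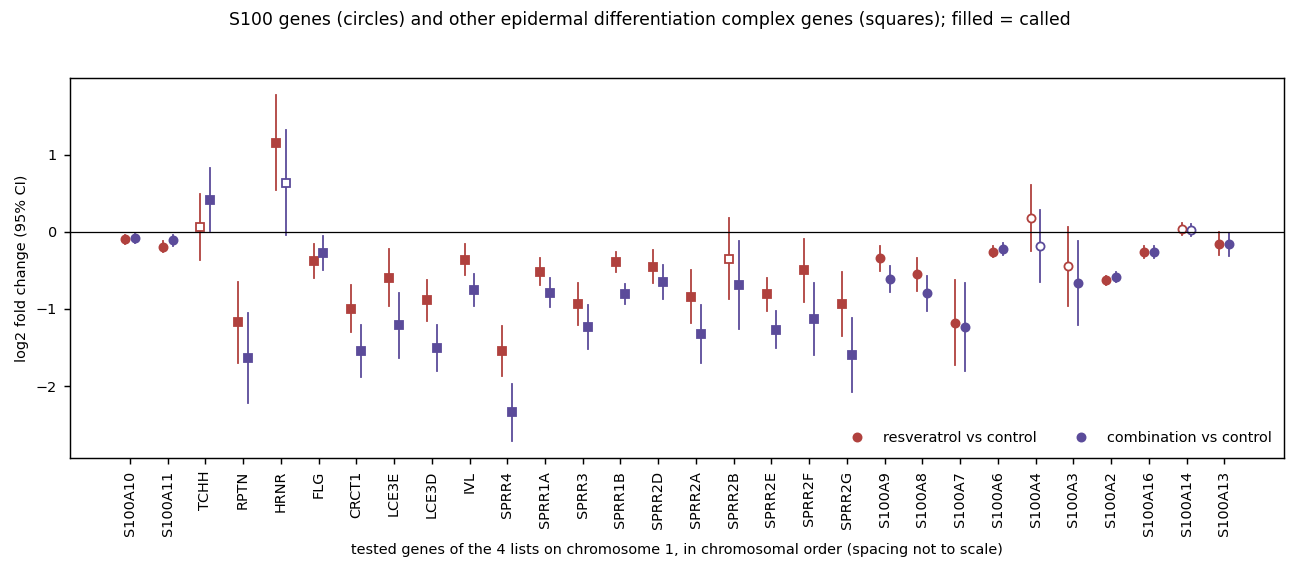
Log2 fold change against the control (with 95% confidence intervals) for the tested genes of chromosome 1 among the S100 genes (circles), cornified envelope genes and S100-fused type genes (squares), in their order along the chromosome and filled where called. The cornified envelope genes lie between -0.65 and -2.34 with the combination, a range that also holds S100A7 at -1.23, S100A8 at -0.80 and S100A3 at -0.67. The other S100 genes shown lie above this range with the combination, from S100A9 at -0.62 to S100A14 at 0.03.

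Among 16 receptors and binding partners of S100 proteins, 15 were tested, and 4 were upregulated and 8 downregulated with the combination, where 29.9% of all tested genes were called in each direction. Among these were CACYBP (-0.57), FABP5 (-0.34), a fatty acid carrier that binds S100A7, AHNAK (-0.26), a scaffold bound by S100A10, and S100PBP (0.25), a nuclear protein that binds S100P. S100PBP was 0.20 within replicates 1 to 3 (edgeR adjusted p = 0.128, not called) and 0.30 within replicates 4 to 6. FABP5 was also lower with the combination than with resveratrol by 0.23 (edgeR adjusted p = 0.000555). Of 15 epithelial antimicrobial protein genes 6 were tested, and with the combination 2 were upregulated and 2 downregulated, a share near the 59.8% of all genes. With resveratrol 4 were upregulated and 2 downregulated, where 28.9% and 28% of all tested genes were called in these directions. For resveratrol, replicates 1 to 3 alone gave 5 calls and replicates 4 to 6 alone gave 2. For the combination each set alone gave 5 calls, more than the fit of all libraries. With the combination CCL20, a chemokine with antimicrobial activity, rose by 1.56 and LCN2 (lipocalin 2), which binds bacterial siderophores, by 0.38, while RNASE7 fell by 0.58 and ADM (adrenomedullin) by 0.29. CCL20 had few counts, with a mean of 4.73 normalized counts in the control and 14.1 with the combination. RNASE7 was -0.36 within replicates 1 to 3 (edgeR adjusted p = 0.285, not called) and -0.79 within replicates 4 to 6.

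The genes closest in pattern to S100P over the 24 libraries were GSR (glutathione reductase), CYP4F11 and AKR1C3, with Pearson r of log2 CPM of 0.961, 0.959 and 0.958. The 100th closest gene still had r = 0.928. Closest to S100A7 were SMAD2, MCRS1 and ITGB1BP1 with r of 0.883, 0.879 and 0.867, and the 100th gene had 0.814. The points share the 4 groups and the 2 sets of replicates, and r is given as a description of these libraries. CYP4F11 rose from a mean of 18.6 to 116 normalized counts with the combination and AKR1C3 from 68.3 to 255.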

How the data were processed

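Total RNA of 24 samples of 686Tu cells was sequenced as stranded mRNA libraries with paired reads. Per the labels and the methods, the authors ran bcl2fastq 2.17.1.14, Trimmomatic 0.36, FastQC 0.11.5, HISAT2 2.0.4 on GRCh38, SAMtools 1.3.1 and DESeq2 1.20.0. The counting program, annotation, strand setting and treatment of reads with several matches are not given in the sources used here. The deposited values were raw counts, whole numbers without normalization, and beside them the authors gave a normalized count, used here as a signal. Dividing raw by normalized counts gave a constant factor in 24 of 24 libraries. The deposited FPKM values further divide by gene length.

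Groups came from the labels. Raw counts of all libraries were fitted together in edgeR 4.0.16 (R 4.3.3) using TMM scaling, filterByExpr and the quasi-likelihood test, and p-values were adjusted by Benjamini-Hochberg over 15476 genes. The test was tested on simulated data. Levels are the authors' normalized counts with SD over 6 libraries, for description only. Positions and overlaps came from GENCODE 44, promoters from RefSeq. For genes with several RefSeq windows, the one nearest the annotated gene start was read.

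The members, lists and tests were chosen with earlier results of these data known. The text names all 10 members, the other S100 genes that were tested, up to 5 called genes of each further list with the largest change with the combination, the 3 genes closest in pattern to the member that rose most and to the one that fell most, and the cell type markers. The result of 1 gene under this rule is not reported here. S100 genes at few counts and genes needed for a count of 5 or fewer were named after their values were seen, and so were HRNR and SPRR1B. Alternatives were DESeq2 1.42.0, its size factors, library size alone, 2 other filters on low counts, an adjusted p under 0.05, only the groups compared, the replicate number or the set of replicates as a term, each set alone, and each library left out. Library depth, 7034872 to 11735574 counts, leaves S100A4, S100A7 and S100P with the widest intervals. The study's mouse, qPCR and protein data were not used here.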

Additional observations from a re-analysis of the deposited data

Results flagged for a closer look

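In 4 of 40 sets of 6 libraries, 1 library stood apart from the rest of its group in the normalized count of a member by Dixon's test at the 95% level, where chance gives 1 in 20, or 2. S100A9 in resveratrol replicate 3 was 388, with the nearest library at 330.5. S100A6 in control replicate 3 was 2069, with the nearest at 1921. S100A16 in combination replicate 3 was 2888 and S100A14 in the same library was 2500.1, with the nearest at 2631 and 2169.8. All 4 were the highest of their group. Without resveratrol replicate 3 the S100A9 difference between the combination and resveratrol was no longer called. SPRR1B, a small proline-rich gene of the epidermal differentiation complex, had an interaction of -0.47 on the log2 scale (edgeR, Benjamini-Hochberg adjusted p = 0.00958), so that its effect of EGCG differed between cells with and without resveratrol. Against the control, SPRR1B fell by 0.40 with resveratrol and by 0.80 with the combination. The cause of these values was not tested.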

How the results depend on the processing

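Of 2067 values of the 10 members under the alternatives, 1946 kept their direction and their side of the limits, 17 passed the limits only under an alternative, 10 no longer passed, and none that was called changed direction. Another 94 values that were never called changed sign, none with a size over 0.23. Most of the 2067 values came from fits without 1 library, often a library outside the groups compared. The values at an adjusted p under 0.05 are the main values and cannot change direction. The share kept is therefore no measure of how firm each result is. The counts of members called with EGCG, resveratrol and the combination against the control were 0, 8 and 8 whichever library was left out. For the combination against EGCG the count was 8 to 9, against resveratrol 0 to 1, and for the interaction 0. S100A4 was called as lower against EGCG without EGCG replicate 3 (-0.50, edgeR adjusted p = 0.0646). It was also called without combination replicate 3 (-0.55, edgeR adjusted p = 0.0534) or replicate 6 (-0.54, edgeR adjusted p = 0.0542). The combination against resveratrol gave 0 members at an adjusted p under 0.05 and 2 with a replicate block, in which S100A11 was also called (0.08, edgeR adjusted p = 0.0831). S100A11 was called as well without combination replicate 6 (0.10, edgeR adjusted p = 0.0902) and in replicates 1 to 3 alone (0.17, edgeR adjusted p = 0.0433). The replicate block gave 9 members for the combination against EGCG and moved no other count of members. Same-numbered libraries of different groups correlated by -0.0111 to 0.131 in their deviations from the group means, over 0.1 in 2 of 36 pairs. The median r was 0.0488 for the same number, 0.0276 for other numbers of the same set of replicates and -0.0406 across the sets. Among 6 numbers, 11 of 24 libraries were closest to their own. Chance would give 1 in 6, or 1 in 3 if only numbers of the same set compete, and both shares are lower. These values do not exclude a weak pairing. The main fit took none, and the replicate block was run as an alternative. The interaction gave 1 member, S100A9 (-0.32, edgeR adjusted p = 0.023), without a filter beyond 1 count in any library. With at least 10 counts in every library, 9 of 9 cornified envelope genes were called with the combination, since fewer were tested, and 1 of 2 further S100 genes. The cause was not tested for the other changes.

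Scaling by library size alone moved the split of all genes called with resveratrol from 4466 higher and 4341 lower to 6147 and 2857, and with the combination from 4633 and 4625 to 6041 and 3311. Against EGCG the split with the combination moved from 4440 and 4510 to 5737 and 3250. The members then gave 9 calls with resveratrol (2 higher, 7 lower) and 8 with the combination (2 higher, 6 lower), S100A14 being the further rise and S100A11 the lost fall, and 1 of the further S100 genes. S100A14 against EGCG was called under this scaling (0.14, edgeR adjusted p = 0.00211), with the filter of 10 counts and without 5 single libraries. The genes with fewest counts, S100A4, S100A7 and S100P, are those whose changes this depth bounds least. No DESeq2 adjusted p was given for S100A4 and S100A7 in some comparisons and for the S100P interaction, and these were left out.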
